A study of Mus musculus with 8 samples.

Results

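The 10 genes described here encode death receptors and the proteins that carry their signal to apoptosis or to necroptosis. They were chosen by name, as Fas, Tnfrsf10b, Eda2r, Tnfrsf1a, Casp8, Fadd, Cflar, Ripk1, Ripk3 and Mlkl, out of 55487 named genes in the table. All 10 were found in the table. All 10 were also among the 14011 genes with enough counts to be tested. Their RNA was measured by sequencing in crypt cells isolated from the ileum of C57BL/6 mice. The CPT-11 group had received CPT-11 at 20 mg per kg over a course of 7 days, and the vehicle group had received the vehicle. CPT-11, or irinotecan, is converted in the body to a drug that traps topoisomerase I on DNA. Each group had 4 libraries, no genetic change is labelled in either group, and age and sex are not used here. Whether different libraries stand for different mice is not labelled, so the p-values measure the spread between libraries, which may be technical.

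Death receptors are members of the tumor necrosis factor (TNF) receptor superfamily that recruit adaptors through a death domain in their cytoplasmic tail. Fas and the TRAIL receptor Tnfrsf10b bind the adaptor Fadd, which brings in procaspase-8 (Casp8), and active caspase-8 starts the apoptotic cascade. The caspase-8 homolog Cflar, also called cFLIP, limits that step. The TNF receptor Tnfrsf1a first assembles a complex around the kinase Ripk1, which can signal survival, apoptosis or necroptosis. When caspase-8 is not active, Ripk1 can engage Ripk3, and Ripk3 phosphorylates Mlkl, which then ruptures the plasma membrane. Eda2r, the receptor for the A2 form of ectodysplasin, lacks a death domain but belongs to the same superfamily. In mouse intestinal epithelium, loss of Casp8 or Fadd is known to lead to Ripk3-dependent death of epithelial cells, with loss of Paneth cells.

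The sequences before the start sites of Eda2r, Ripk3 and Fas are shown because Eda2r and Ripk3 were the only ones of the 10 genes to pass the test in the comparison below, and Fas is the prototype of the death receptors. They are the 250 bases upstream of the RefSeq start on build GRCm38.p6, written 5′ to 3′ on the strand of the gene. They span chrX:97377210-97377459 on the minus strand for Eda2r, chr14:55788858-55789107 on the minus strand for Ripk3 and chr19:34290409-34290658 on the plus strand for Fas. Capitals mark the GC box core GGGCGG and the TATA box motif TATAAA, each searched on both strands.
Eda2r: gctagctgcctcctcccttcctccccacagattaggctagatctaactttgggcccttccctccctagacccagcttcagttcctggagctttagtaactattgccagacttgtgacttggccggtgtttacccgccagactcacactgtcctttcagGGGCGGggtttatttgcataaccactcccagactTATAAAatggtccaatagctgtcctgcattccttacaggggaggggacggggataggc
Ripk3: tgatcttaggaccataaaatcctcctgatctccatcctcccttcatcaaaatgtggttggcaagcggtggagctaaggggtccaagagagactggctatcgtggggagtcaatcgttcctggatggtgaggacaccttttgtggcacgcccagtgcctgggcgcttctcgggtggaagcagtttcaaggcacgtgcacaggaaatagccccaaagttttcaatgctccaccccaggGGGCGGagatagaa
Fas: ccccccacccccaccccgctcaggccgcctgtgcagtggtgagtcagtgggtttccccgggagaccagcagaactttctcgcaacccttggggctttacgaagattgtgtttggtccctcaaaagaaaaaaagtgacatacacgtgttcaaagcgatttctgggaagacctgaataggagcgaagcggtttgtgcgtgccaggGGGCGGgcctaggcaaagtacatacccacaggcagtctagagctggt
The GC box core began at position -92 in Eda2r, -14 in Ripk3 and -47 in Fas, counted back from the start site, and Eda2r also held TATAAA at position -58. RefSeq windows were matched for 9 of the 10 genes, with 2 start sites for Ripk1, and Tnfrsf10b was not matched. GGGCGG is present in 32.7% of the 32851 windows of this length in the whole promoter table and TATAAA in 12.4%. The windows of the 9 matched genes held no p53 half-site, no NF-kB motif and no core of the interferon-stimulated response element. Over the whole table, those motifs are present in 7.13%, 7.25% and 2.98% of windows. These matches describe letters within 250 bases and say nothing of binding.

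The libraries held 20790164 to 23479121 counts each. Markers of epithelium were abundant in all 8, at a summed 11540 to 15620 counts per 1e6 counts (CPM) in CPT-11 libraries and 10630 to 12250 CPM in vehicle libraries. Paneth cell and goblet cell markers were also abundant in every library. Paneth cell markers summed to 25380 to 47170 CPM in CPT-11 libraries and 40790 to 58380 CPM in vehicle libraries. Of these 6 markers 0 passed the threshold, and 2 were lower at an unadjusted p below 0.05 (edgeR), against 11.2% of all genes. Goblet cell markers summed to 10600 to 36620 CPM in CPT-11 libraries and 10500 to 14650 CPM in vehicle libraries. Crypt base stem cell markers summed to 395 to 576 CPM in CPT-11 libraries and 1360 to 1606 CPM in vehicle libraries. Of the 7, 3 were lower after CPT-11 (edgeR), beside 2.52% of all genes. Olfm4 made up most of each sum, at 279 to 427 CPM in CPT-11 libraries and 1149 to 1366 CPM in vehicle libraries. Ascl2 went the other way, at 9.12 to 15.7 CPM in CPT-11 libraries and 7.77 to 10.2 CPM in vehicle libraries, with overlapping groups. Enterocyte markers reached 18210 to 59330 CPM in CPT-11 libraries and 11410 to 19260 CPM in vehicle libraries, with 1 of 11 higher beside 2.98% of all genes. That count was 0 without CPT-11 replicate 1 or any 1 of the vehicle libraries. CPT-11 replicate 2 held the highest enterocyte sum. That library also stood apart in its rank correlation with the other CPT-11 libraries, at 0.931 to 0.962. Its long genes were also the lowest relative to its short genes, with a difference in median log2 deviation between long and short genes of -0.96. This value was -0.40 in CPT-11 replicate 4, 0.03 and 0.43 in CPT-11 replicates 1 and 3, and 0.13 to 0.40 in vehicle libraries. The part of the cell mix in the results below was not tested. In these bulk preparations, a change in the number of cells of a type and a change in RNA per cell cannot be told apart.

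After CPT-11, RNA of the receptor Eda2r and of the kinase Ripk3 was higher than after vehicle, by 8.57-fold and 1.71-fold. No gene of the 10 fell. The other 8 genes, among them Fas, Casp8 and Mlkl, missed the threshold of an adjusted p of 0.05. The tests were edgeR quasi-likelihood F tests, two-sided, with Benjamini-Hochberg adjustment over all 14011 genes. Over all genes tested, 417, or 2.98%, rose and 353, or 2.52%, fell, and 2 of 10 rises stand beside a background of 2.98%. At an unadjusted p below 0.05, 6 of the 10 were higher and 0 lower, where 13.4% of all genes tested were higher and 11.2% lower. The log2 fold change was positive for 8 of the 10, against 51.3% of all genes, with a median log2 fold change of 0.46 for the 10, against 0.01 for all genes tested. In 4 of the 10 (Fas, Eda2r, Casp8 and Ripk3) every CPT-11 library lay above every vehicle library, which was true of 8.4% of all genes tested, and 0 of the 10 lay wholly below, against 10.1% of all genes.

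**Figure D1:**
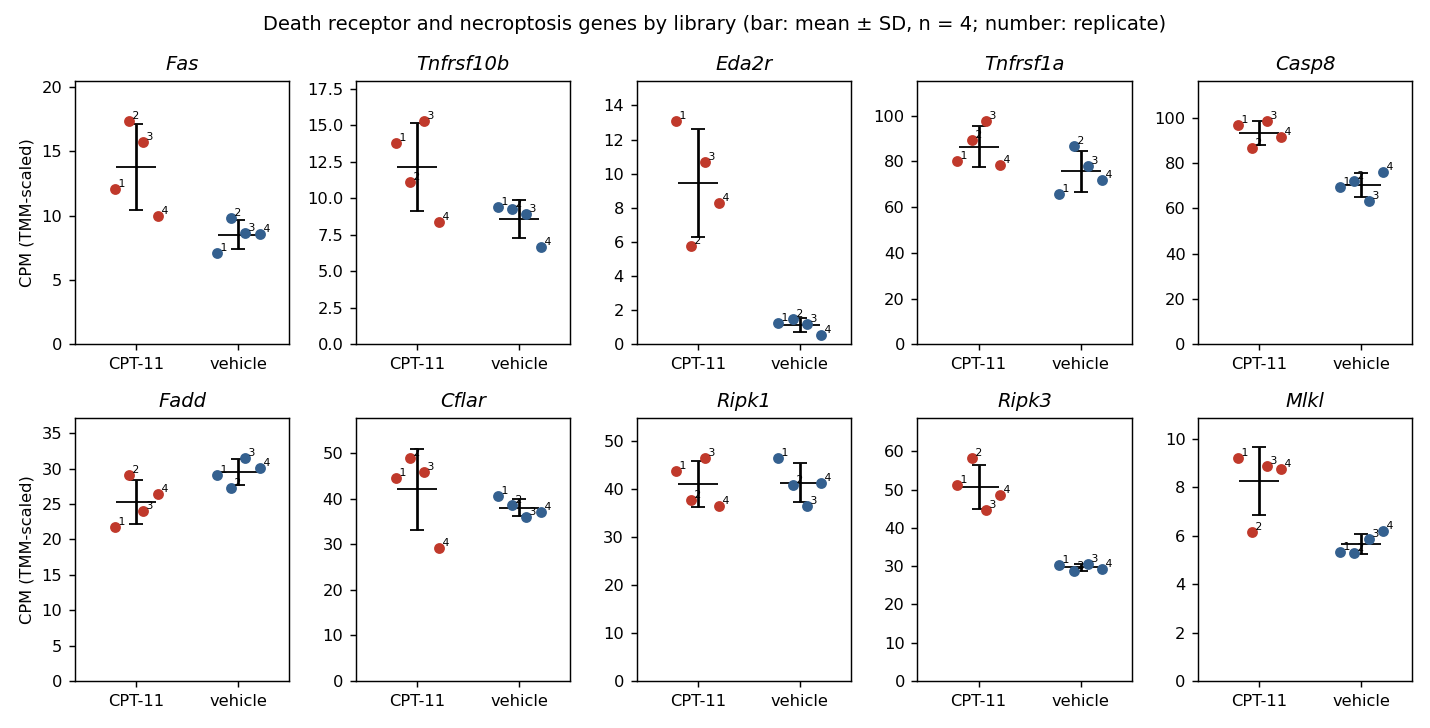
Level of each of the 10 genes in every library, in CPM scaled by the trimmed mean of M values (TMM), with CPT-11 left of vehicle; numbered points are replicates and bars are the mean ± SD of 4 libraries. Each panel starts at 0 and has its own scale, and Eda2r separates the groups at 5.74 to 13.1 CPM in CPT-11 libraries against 0.51 to 1.47 CPM in vehicle libraries.

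Among the receptors, Eda2r (chromosome X, bases 97333840 to 97377216 of GRCm38, minus strand) had the largest fold change of the 10 genes. It had 13.1, 5.74, 10.7 and 8.26 CPM in CPT-11 replicates 1 to 4, against 1.22, 1.47, 1.21 and 0.51 CPM in vehicle replicates 1 to 4. The lowest CPT-11 library was therefore well above the highest vehicle library. In counts, these were 288, 93, 256 and 167 in CPT-11 libraries and 28, 31, 29 and 12 in vehicle libraries, so the vehicle level rests on few reads. This gave a log2 fold change of 3.10 ± 0.36 (SE, n = 4 libraries each; edgeR adjusted p = 0.00179), with a 95% interval of 2.30 to 3.89. Its ligand gene Eda was close to absent, at 0, 1, 3 and 0 counts in CPT-11 libraries and 2, 3, 8 and 4 counts in vehicle libraries, and was not tested.

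Fas (chromosome 19, bases 34290666 to 34327772, plus strand), the receptor for Fas ligand, had 12.1, 17.3, 15.7 and 9.99 CPM in CPT-11 replicates 1 to 4, against 7.11, 9.81, 8.64 and 8.53 CPM in vehicle replicates 1 to 4. The groups did not overlap, but CPT-11 replicate 4 and vehicle replicate 2 lay close together. The log2 fold change was 0.69 ± 0.20 (edgeR adjusted p = 0.0707), with an unadjusted 95% interval of 0.25 to 1.13, and without CPT-11 replicate 4 the adjusted p was 0.0497. The TRAIL receptor Tnfrsf10b (chromosome 14, bases 69767472 to 69784411, plus strand) had 13.8, 11.1, 15.3 and 8.40 CPM in CPT-11 libraries and 9.42, 9.24, 8.94 and 6.65 CPM in vehicle libraries. Here CPT-11 replicate 4 lay within the vehicle range. The log2 fold change of Tnfrsf10b was 0.50 ± 0.21 (edgeR adjusted p = 0.173). Tnfrsf1a (chromosome 6, bases 125349362 to 125362484, plus strand), the main receptor for soluble TNF, averaged 86.5 ± 8.85 CPM in CPT-11 libraries and 75.6 ± 8.87 CPM in vehicle libraries (SD, n = 4 each), with overlapping groups. Its log2 fold change was 0.19 ± 0.13 (edgeR adjusted p = 0.369). Its 95% interval ran from -0.10 to 0.48.

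At the caspase-8 step, the protease, its adaptor and its inhibitor did not pass the test. Casp8 (chromosome 1, bases 58795374 to 58847503, plus strand) had 97.0, 86.8, 98.6 and 91.8 CPM in CPT-11 replicates 1 to 4, against 69.5, 71.9, 63.3 and 76.1 CPM in vehicle replicates 1 to 4. Every CPT-11 library lay above every vehicle library, and the spread within each group was small, at 5.35 CPM (SD) in both groups. For Casp8 the log2 fold change was 0.41 ± 0.11 (edgeR adjusted p = 0.0598), with a 95% interval of 0.17 to 0.66, and without CPT-11 replicate 2 the adjusted p was 0.0209. The adaptor Fadd (chromosome 7, bases 144577318 to 144582463, minus strand) averaged 25.3 ± 3.15 CPM in CPT-11 libraries and 29.5 ± 1.81 CPM in vehicle libraries (SD, n = 4 each). Its log2 fold change of -0.22 ± 0.13 (edgeR adjusted p = 0.307) was the most negative of the 10, and the groups overlapped. Fadd shares 239 exon bases with an antisense gene, which held 14.7 counts over all 8 libraries. The inhibitor Cflar (chromosome 1, bases 58711508 to 58758884, plus strand) had 44.7, 49.0, 45.8 and 29.1 CPM in CPT-11 libraries and 40.6, 38.6, 36.1 and 37.2 CPM in vehicle libraries. CPT-11 replicate 4 was the lowest of the 8 for Cflar and the other 3 CPT-11 libraries were the highest. The log2 fold change of Cflar was 0.15 ± 0.16 (edgeR adjusted p = 0.596).

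In the necroptosis arm, Ripk3 rose while its partner Ripk1 showed no difference that passed the test. Ripk3 (chromosome 14, bases 55784995 to 55788865, minus strand), the kinase that activates Mlkl, had 51.1, 58.3, 44.5 and 48.7 CPM in CPT-11 replicates 1 to 4, against 30.2, 28.6, 30.6 and 29.4 CPM in vehicle replicates 1 to 4. The vehicle libraries lay between 28.6 and 30.6 CPM and every CPT-11 library was far above them. Ripk3 thus had a log2 fold change of 0.77 ± 0.12 (SE, n = 4 libraries each; edgeR adjusted p = 0.00723), with a 95% interval of 0.51 to 1.03. CPT-11 replicate 2 had the highest Ripk3 in CPM but the lowest count of the 4 CPT-11 libraries, at 945 against 985 to 1125. Its TMM factor was 0.731, against 0.977 to 1.099 in the other CPT-11 libraries. Relative to short genes, long genes were lowest in that library. In CPT-11 replicate 4 they were also lower than in the vehicle libraries. The merged exons of Ripk3 span 2292 bases, against 8344 for Ripk1. Without CPT-11 replicate 2 the log2 fold change of Ripk3 was 0.71 (edgeR adjusted p = 0.0025). Without CPT-11 replicates 2 and 4 it was 0.69 (adjusted p = 0.0028). With each library's trend on gene length removed it was 0.69 (adjusted p = 0.00249).

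Ripk1 (chromosome 13, bases 34002363 to 34037147, plus strand), the kinase shared by survival and death complexes, averaged 41.1 ± 4.81 CPM in CPT-11 libraries and 41.3 ± 4.09 CPM in vehicle libraries (SD, n = 4 each). The groups overlapped widely, and the log2 fold change was -0.01 ± 0.13 (edgeR adjusted p = 0.975). Its 95% interval ran from -0.30 to 0.28. Ripk1 shares 241 exon bases with Serpinb6a on the opposite strand and 511 with a pseudogene on its own strand, and whether counting used strand is not given in the sources used here, so reads from the shared bases cannot be told apart. Serpinb6a, a serpin, averaged 536 ± 112 CPM in CPT-11 libraries and 379 ± 56.5 CPM in vehicle libraries. Its log2 fold change was 0.50 ± 0.18 (edgeR adjusted p = 0.133).

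Mlkl (chromosome 8, bases 111311797 to 111338177, minus strand), the pore-forming executor of necroptosis, had 9.22, 6.17, 8.87 and 8.75 CPM in CPT-11 replicates 1 to 4, against 5.32, 5.31, 5.84 and 6.18 CPM in vehicle replicates 1 to 4. CPT-11 replicate 2 lay inside the vehicle range, just below vehicle replicate 4, and the other 3 CPT-11 libraries lay above all vehicle libraries. Mlkl had a log2 fold change of 0.54 ± 0.17 (edgeR adjusted p = 0.0949), with a 95% interval of 0.16 to 0.93. Without CPT-11 replicate 2 the adjusted p was 0.0175.

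**Figure D2:**
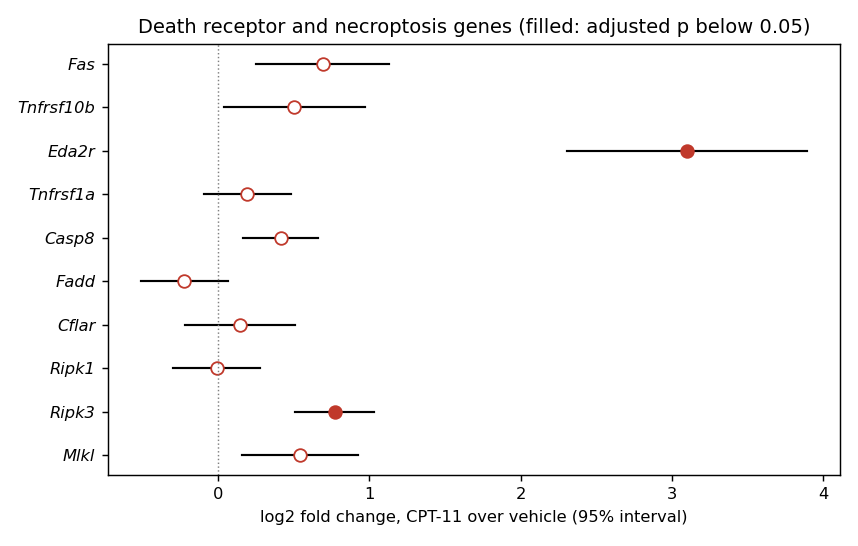
Log2 fold change of each of the 10 genes, CPT-11 over vehicle, on the x axis, with 95% intervals from the edgeR fit that are not adjusted for the number of genes; filled points passed an adjusted p of 0.05. Eda2r at 3.10 and Ripk3 at 0.77 are filled, and Fadd and Ripk1 are the only ones of the 10 with a log2 fold change below 0.

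Ratios of counts within a library do not depend on how libraries are scaled, and are given as descriptions without a test. The ratio of Ripk3 to Ripk1 was 1.17, 1.55, 0.96 and 1.34 in CPT-11 replicates 1 to 4, against 0.65, 0.70, 0.84 and 0.71 in vehicle replicates 1 to 4. The groups did not overlap, with means of 1.25 ± 0.25 in CPT-11 libraries and 0.72 ± 0.08 in vehicle libraries (SD, n = 4 each). Ripk3 is the shorter of the pair, and with each library's trend on gene length removed the log2 fold change was 0.69 for Ripk3 and 0.23 for Ripk1, against 0.77 and -0.01 without that step. The ratio of Casp8 to its inhibitor Cflar was 2.17, 1.77, 2.15 and 3.15 in CPT-11 libraries and 1.71, 1.86, 1.75 and 2.05 in vehicle libraries. These groups overlapped, and the highest ratio, in CPT-11 replicate 4, comes from the library with the lowest Cflar. The ratio of Ripk3 to Casp8 also overlapped between the groups, at 0.45 to 0.67 in CPT-11 libraries and 0.39 to 0.48 in vehicle libraries.

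**Figure D3:**
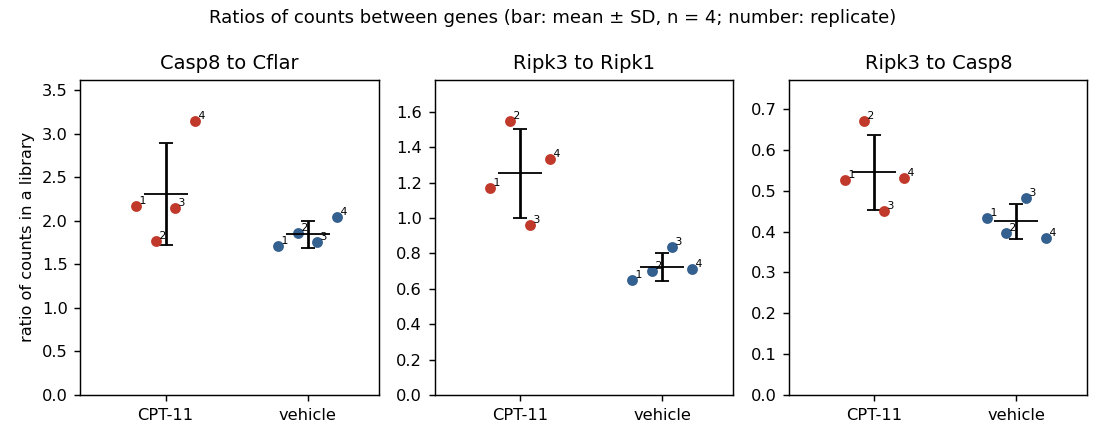
Ratios of counts between genes within each library (y axis, no unit, starting at 0), with CPT-11 left of vehicle; numbered points are replicates and bars are the mean ± SD of 4 libraries. Of the 3 ratios, Ripk3 to Ripk1 is the one whose groups do not overlap, with a lowest CPT-11 value of 0.96 and a highest vehicle value of 0.84.

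Eda2r and Ripk3 passed the test under all 18 alternative analyses. The log2 fold change ranged from 2.86 to 3.54 for Eda2r and from 0.69 to 0.82 for Ripk3. Fas, Casp8 and Mlkl each passed in 4 of the 18, with edgeR adjusted p-values up to 0.206, 0.19 and 0.24. With DESeq2 the adjusted p was 0.0174 for Fas, 0.000876 for Casp8 and 0.0231 for Mlkl, so that tool called 5 of the 10 genes higher and 0 lower. DESeq2 also called more genes over the whole table, with 7.47% higher and 6% lower. With limma-voom 2 of the 10 were higher and 0 lower, where 2.93% of all genes were higher and 2.7% lower. With sample quality weights it called 6 of the 10 higher and 1 (Fadd) lower, where 11% of all genes were higher and 11.7% lower. Without CPT-11 replicates 2 and 4 together, 6 of the 10 were higher, among them Tnfrsf10b (adjusted p = 0.0169), where 4.36% of all genes were higher and 3.94% lower. Tnfrsf1a, Cflar and Ripk1 passed in none of the 18.

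Levels of different genes can be compared only per length, and were set side by side as CPM per kilobase of merged exons in vehicle crypts. Tnfrsf1a at 29.2 ± 3.42 and Casp8 at 24.3 ± 1.85 CPM per kilobase were the most abundant of the 10 (SD, n = 4), and their ranges over libraries overlapped. Ripk3 followed at 12.9 ± 0.38, then Fadd at 7.56 ± 0.46, Ripk1 at 4.95 ± 0.49 and Fas at 4.13 ± 0.54, of which Ripk1 and Fas overlapped. Below them came Cflar at 3.01 ± 0.15, Mlkl at 2.46 ± 0.19 and Tnfrsf10b at 1.57 ± 0.24 CPM per kilobase. Eda2r was lowest, at 0.19 ± 0.07 CPM per kilobase in vehicle libraries. In CPT-11 libraries Eda2r stood at 1.60 ± 0.54 CPM per kilobase, which was still the lowest mean of the 10 on this length. Ripk3 reached 22.1 ± 2.52 CPM per kilobase in CPT-11 libraries and was again next, behind Tnfrsf1a at 33.4 ± 3.42 and Casp8 at 32.3 ± 1.85. The places of Cflar and Eda2r depend on the length used. For Cflar, merged exons span 12669 bases and the length in the deposited table is 1771 bases, and for Eda2r these are 5891 and 1433 bases. On that deposited length Cflar stood at 21.5 CPM per kilobase in vehicle libraries, behind Casp8 at 38.0 and Tnfrsf1a at 35.1 and ahead of Ripk3 at 15.7. Eda2r, on its deposited length, stood at 6.59 CPM per kilobase in CPT-11 libraries, next to Fadd at 6.48 and Ripk1 at 6.34 and above Mlkl at 4.12 and Tnfrsf10b at 3.82, and at 0.77 in vehicle libraries, again the lowest of the 10.

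The genes whose profile over the 8 libraries was closest to that of Eda2r, by the root mean square difference of mean-centred log2 CPM, were Akr1b8 at 0.41, Plk2 at 0.47 and Ces1g at 0.52. For Ripk3 the closest were Phlda1 at 0.07, Sccpdh at 0.08 and Lmna at 0.09. This describes likeness over these libraries and has no test. The measure takes in the difference between the groups, so genes with a similar fold change come close by construction. Plk2, a polo-like kinase, averaged 14.7 ± 5.29 CPM in CPT-11 libraries and 2.33 ± 0.63 CPM in vehicle libraries. Lmna, which encodes lamins A and C, averaged 273 ± 41.3 CPM in CPT-11 libraries and 151.0 ± 5.69 CPM in vehicle libraries.

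Of 9 ligand genes, 7 could be tested, and 1 rose. Tnf, the ligand of Tnfrsf1a, had 2.63, 2.65, 2.89 and 4.00 CPM in CPT-11 replicates 1 to 4, against 0.35, 0.81, 0.33 and 0.73 CPM in vehicle replicates 1 to 4. The groups did not overlap, although these levels rest on 43 to 81 counts in CPT-11 libraries and 8 to 17 counts in vehicle libraries. For Tnf the log2 fold change was 2.45 ± 0.36 (edgeR adjusted p = 0.00589), and it passed under all 18 alternatives. Tnfsf10, which encodes the TRAIL ligand of Tnfrsf10b, had 33.2, 17.6, 51.0 and 23.3 CPM in CPT-11 replicates 1 to 4, against 52.6, 47.8, 53.02 and 53.66 CPM in vehicle replicates 1 to 4. CPT-11 replicate 3 lay among the vehicle libraries and the other 3 lay below them. For Tnfsf10 the log2 fold change was -0.72 ± 0.28 (edgeR adjusted p = 0.150), and it passed in 2 of the 18 alternatives. It was -1.07 without CPT-11 replicate 3 (adjusted p = 0.0181), -0.52 without CPT-11 replicate 2 (adjusted p = 0.178) and -0.29 without CPT-11 replicates 2 and 4 (adjusted p = 0.285). Fasl, the ligand of Fas, had 1.29 to 2.23 CPM in CPT-11 libraries and 0.74 to 2.81 CPM in vehicle libraries, with a log2 fold change of 0.35 ± 0.44 (edgeR adjusted p = 0.643). Vehicle replicate 4 was the highest of the 8 for Fasl, and without it the log2 fold change was 0.95 (adjusted p = 0.165). Ltb, Tnfsf12, Tnfsf14 and Tnfsf15 also missed the threshold, with log2 fold changes from -0.49 for Tnfsf12 to 0.66 for Ltb. Lta and Eda had too few counts to test.

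Markers of cells that are known to make TNF and Fas ligand moved in part with Tnf. T and NK cell markers summed to 345 to 535 CPM in CPT-11 libraries and 157.0 to 509 CPM in vehicle libraries, with 0 of 12 past the threshold by edgeR, 3 higher before adjustment (p below 0.05, a threshold passed upward by 13.4% of all genes), and 0 by DESeq2 or limma-voom. Macrophage and dendritic cell markers summed to 54.1 to 75.8 CPM in CPT-11 libraries and 44.8 to 59.5 CPM in vehicle libraries, and 2 of the 11 tested were higher, or 1 without CPT-11 replicate 1 or 4 or any 1 of the vehicle libraries. Before adjustment 6 of the 11 were higher and 1 lower, where 13.4% of all genes were higher and 11.2% lower. Itgam went the other way, at 0 to 0.88 CPM in CPT-11 libraries and 1.63 to 2.99 CPM in vehicle libraries. B and plasma cell markers summed to 7.45 to 16.1 CPM in CPT-11 libraries and 1.44 to 5.89 CPM in vehicle libraries, and 4 of the 5 tested were higher. That count was 0 without CPT-11 replicate 1 or 4 or vehicle replicate 1 or 4, and 1 without vehicle replicate 2. Neutrophil markers were near 0, at 0.12 to 0.45 CPM in CPT-11 libraries and 0.05 to 0.17 CPM in vehicle libraries, with Ly6g at 0 in all 8. Genes that respond to dissociation summed to 308 to 413 CPM in CPT-11 libraries and 198 to 284 CPM in vehicle libraries, and 4 of 10 were higher, or 1 without vehicle replicate 1, 3 or 4 and 2 without CPT-11 replicate 1. Over all genes tested, 2.98% were higher and 2.52% lower by edgeR. The part of the cell types above and of handling in the values of Tnf, Ripk3 and Eda2r was not tested.

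Among 12 other TNF receptor genes, 7 were tested and 1 rose. Tnfrsf12a, which encodes Fn14, the receptor for TWEAK, had 13.0, 17.9, 10.2 and 16.1 CPM in CPT-11 replicates 1 to 4, against 3.79, 4.36, 5.05 and 4.22 CPM in vehicle replicates 1 to 4. Its lowest CPT-11 library lay well above the highest vehicle library. Tnfrsf12a had a log2 fold change of 1.71 ± 0.20 (edgeR adjusted p = 0.00201). None of the 23 genes of the TNF receptor complex list, which holds the ubiquitin ligases, deubiquitinases and kinases that act on Ripk1, passed by edgeR. At an unadjusted p below 0.05, 3 of the 23 were higher and 2 lower, close to the shares of all genes (13.4% and 11.2%). DESeq2 called 1 higher and 2 lower, and limma-voom called none. The smallest p of the list was that of Tab1, a subunit of the TAK1 kinase complex, with a log2 fold change of -0.41 ± 0.12 (edgeR adjusted p = 0.0668).

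Of 11 tested modulators of caspase-8 activation, 1 rose. Faim, an inhibitor of Fas-induced apoptosis, averaged 12.7 ± 2.46 CPM in CPT-11 libraries and 7.97 ± 0.82 CPM in vehicle libraries. Its log2 fold change of 0.67 ± 0.17 was at the threshold (edgeR adjusted p = 0.0493) and missed it in 11 of the 18 alternatives, with adjusted p-values up to 0.148. Those include the fits without CPT-11 replicate 1 or 4 and without any 1 of the vehicle libraries. Of the 10 caspase-8 substrates and executioners, 1 rose. Bax, a pore former of the mitochondrial route, had 118, 165, 79.7 and 132 CPM in CPT-11 replicates 1 to 4, against 33.8, 40.5, 40.0 and 40.1 CPM in vehicle replicates 1 to 4. All CPT-11 libraries were above all vehicle libraries, with a log2 fold change of 1.68 ± 0.20 (edgeR adjusted p = 0.00226). Bid, which caspase-8 cleaves to reach the mitochondrial route, had a log2 fold change of 0.02 ± 0.22 (edgeR adjusted p = 0.957).

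Of 19 tested regulators of necroptosis, 1 rose. Hsp90aa1, a chaperone of Ripk1 and Ripk3, averaged 353 ± 33.2 CPM in CPT-11 libraries and 223 ± 38.6 CPM in vehicle libraries, with a log2 fold change of 0.66 ± 0.15 (edgeR adjusted p = 0.0368). It missed the threshold in 6 of the 18 alternatives, with adjusted p-values up to 0.135, among them the fits without CPT-11 replicate 1 or 4 or vehicle replicate 2, 3 or 4. Zbp1, the sensor of Z-form nucleic acids that can engage Ripk3 directly, had 21.9, 26.4, 18.9 and 20.5 CPM in CPT-11 replicates 1 to 4, against 8.20, 5.07, 10.2 and 17.3 CPM in vehicle replicates 1 to 4. The groups did not overlap, but vehicle replicate 4 was close to the lowest CPT-11 library. Zbp1 had a log2 fold change of 1.10 ± 0.32 (edgeR adjusted p = 0.0724), and passed in 4 of the 18 alternatives, with adjusted p-values up to 0.252. It was 1.48 without vehicle replicate 4 (adjusted p = 0.0210) and 0.87 without vehicle replicate 2 (adjusted p = 0.117).

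**Figure D4:**
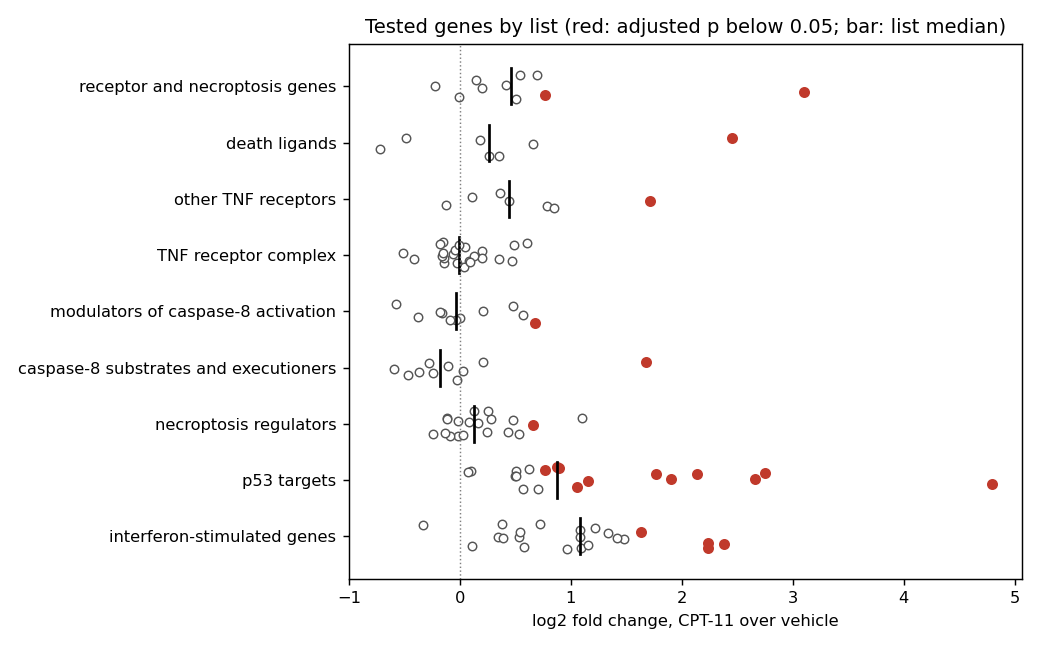
Log2 fold change, CPT-11 over vehicle, of each tested gene in the lists (x axis), with red points for an adjusted p below 0.05 and a bar at the median of each list. The 10 death receptor and necroptosis genes have a median of 0.46, p53 targets 0.87 and interferon-stimulated genes 1.08, against 0.01 for all genes tested.

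Transcriptional programs that are known to reach several of the 10 genes were described with lists that do not hold them. Those lists were chosen with earlier results of these data known. Fas, Tnfrsf10b and Eda2r are known p53 targets. Of 19 other p53 targets 11 rose and 0 fell, beside 2.98% and 2.52% of all genes. At an unadjusted p below 0.05 (edgeR), 17 of the 19 were higher, beside 13.4% of all genes. The 19 had a median log2 fold change of 0.87. Leaving out each library in turn gave 7 to 12 rises, with 7 without vehicle replicate 3 or 4. The 4 with the smallest p were Phlda3, an inhibitor of Akt, with a log2 fold change of 4.79 ± 0.25, the epoxide hydrolase Ephx1 at 2.75 ± 0.14, the cyclin Ccng1 at 2.14 and the RNA-binding protein Zmat3 at 1.90. Plk2, named above, is also in this list. Casp8, Mlkl, Zbp1 and Tnfsf10 are known interferon-responsive genes. Of 22 interferon-stimulated genes 4 rose (Ifit1, Ifit3, Oasl1 and Rsad2) and 0 fell, beside the same 2.98% and 2.52%. At an unadjusted p below 0.05 (edgeR), 16 of the 22 were higher and 0 lower, beside 13.4% and 11.2% of all genes. The 22 had a median log2 fold change of 1.08. Their summed level was 587 to 809 CPM in CPT-11 libraries and 355 to 404 CPM in vehicle replicates 1 to 3, with vehicle replicate 4 at 601 CPM. Without vehicle replicate 4 the count of rises was 12, without vehicle replicate 1 or 3 it was 1, and without vehicle replicate 2 it was 2. The part of p53 or of interferon in the values of the 10 genes was not tested. Broader sets, the genes that the table assigns to KEGG pathways, hold some of the 10 genes themselves. Of these, 7 of 96 tested in TNF signaling rose and 0 fell, 10 of 136 in apoptosis rose and 0 fell, and 5 of 130 in necroptosis rose and 1 fell. Over all genes tested, 2.98% rose and 2.52% fell, or 5.5% in either direction.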

How the data were processed

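RNA sequencing of ileal crypt cells gave 8 libraries, 4 from CPT-11 and 4 from vehicle mice, with 20790164 to 23479121 counts each. Per the labels' protocols, crypts were released and dissociated, with no sort mentioned. The authors deposited estimated counts per gene, not normalized, with a gene length for each gene in the deposited table. Per the submitters' processing notes, Bowtie2 2.4.1 and build GRCm38.p6 were used and the sources used here name neither the counting tool nor its strand setting. The 543 rows without a gene name, with 0.325% to 0.662% of counts, were left out.

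After rounding, edgeR 4.0.16 (R 4.3.3) was run with TMM scaling and robust quasi-likelihood F tests, two-sided and without covariates. Its default filter asked for a count of 10 in enough libraries and 15 overall. Benjamini-Hochberg adjustment covered all 14011 genes that passed, and 0.05 was the threshold. Standard errors and 95% intervals come from the F statistic. CPM were divided by TMM-scaled library sizes and, for levels, by merged exon length in GENCODE M21 on GRCm38, which holds 55227 of the 55487 named genes. Estimates for Cflar and Ripk1 were not whole in any library, as happens where reads are shared between features. Those for Tnfrsf10b and Fadd were not whole in 75% of libraries, and those for Casp8 in 37.5%. The fit was tested on simulated counts.

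The genes and lists were chosen with earlier results of these data known. Beside the 10 genes, up to 4 of each list past the threshold are named, by smallest p. Where none passed, the 1 with the smallest p is named. Also named are all ligands, Zbp1, and the 3 closest profiles of each gene of the 10 that passed. Bid, Serpinb6a, Ly6g, Itgam, Olfm4 and Ascl2 were chosen after their values were seen. Other cell type markers are given as sums and counts. The 18 alternatives were other scalings and filters, DESeq2 1.42.0, voom in limma 3.58.1 (plain or with sample quality weights), a block for the replicate number, an offset removing the gene length trend, each library left out, and CPT-11 replicates 2 and 4 left out. Levels on the deposited gene length were added after seeing the data.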

Additional observations from a re-analysis of the deposited data

Results flagged for a closer look

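In 82 groups of 4 libraries, covering the 10 genes, the ratios and the other genes named, 9 held a library whose gap to the nearest other exceeded the 95% critical share of the group's range by Dixon's criterion. Chance gives about 1 in 20 such groups.

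Of the 10 genes this touched Mlkl alone, where CPT-11 replicate 2 was lowest at 6.17 CPM and the other CPT-11 libraries lay between 8.75 and 9.22 CPM. The same library was highest for 2 profile neighbours of Ripk3. Sccpdh was at 33.7 CPM against 26.8 to 27.9 CPM in the other CPT-11 libraries, and Phlda1 at 27.9 CPM against 19.8 to 21.2 CPM. CPM in that library rest on its TMM factor of 0.731, the lowest of the 8.

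Vehicle replicate 4 was highest for Ifit1 at 10.2 CPM, with the other vehicle libraries at 4.05 to 4.80 CPM. It was also highest for Ifit3 at 4.01 CPM, with the others at 1.42 to 1.61 CPM. Among CPT-11 libraries, replicate 3 was highest for Ifit3 at 16.4 CPM, with the others at 7.34 to 8.67 CPM.

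Among p53 targets, CPT-11 replicate 3 was lowest for Ephx1 at 88.6 CPM, with the others at 109 to 111 CPM. CPT-11 replicate 1 was highest for Ccng1 at 318 CPM, with the others at 226 to 231 CPM. Vehicle replicate 1 was lowest for Bax at 33.8 CPM, with the others at 40.0 to 40.5 CPM.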

How the results depend on the processing

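Over the 18 alternatives, 159 of 180 comparisons for the 10 genes kept direction and side of the threshold, 15 newly passed it, 0 no longer passed it, and 6 changed sign, all for Ripk1. Genes higher and lower after CPT-11 numbered 1045 and 839 with DESeq2, 1535 and 1635 with limma-voom and quality weights, 684 and 617 with the length trend removed, and 637 and 575 without CPT-11 replicates 2 and 4. Of the 10 genes, DESeq2 called 5 higher, quality weights 6 higher and 1 lower (Fadd, log2 fold change -0.37, adjusted p = 0.0179), and the fit without CPT-11 replicates 2 and 4 called 6 higher. Leaving out each library gave 132 to 769 genes higher, 104 to 753 lower, and 2 to 4 of the 10 higher (4 without CPT-11 replicate 2); genes higher were fewest without vehicle replicate 1 or 3 and most without CPT-11 replicate 3. The cause of these differences was not tested.

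Ripk1 turned positive with quality weights (0.060), with the length trend removed (0.23), without CPT-11 replicate 2 (0.04), CPT-11 replicate 4 (0.04) or vehicle replicate 1 (0.059), and without CPT-11 replicates 2 and 4 (0.13); over the libraries left out in turn it ranged from -0.079 to 0.059. Tnfsf14 turned negative without CPT-11 replicate 1 (-0.03) or vehicle replicate 2 (-0.16), with a range of -0.16 to 0.74 over the libraries left out in turn.

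With the replicate number as a block, 397 genes were higher and 289 lower, and Eda2r (adjusted p = 0.00746) and Ripk3 (adjusted p = 0.0277) were the 2 called of the 10. Deviations of same-numbered libraries correlated at 0.234, 0.144, -0.119 and 0.0911, so the numbers were not taken to pair them, and 2 of the 4 matched their own number best. Low counts limit the precision for Eda2r and for the ligands Tnf, Fasl, Tnfsf12 and Tnfsf14.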
